A study of Mus musculus with 4 samples.

Results

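The nuclear genes of the oxidative phosphorylation complexes were examined in mouse small intestinal organoids that carried a lentiviral miR-181a-5p mimic or its control. Members were the protein-coding genes whose symbols begin with Nduf, Uqcr, Cox4 to Cox8 or Atp5, together with Sdha, Sdhb, Sdhc, Sdhd, Cyc1 and Cycs, with pseudogenes marked -ps left out. These were 95 of 55487 listed genes, of which 36 encode subunits of complex I, 8 are assembly factors of complex I, 4 belong to complex II, 9 to complex III, 20 to complex IV and 17 to complex V, and 1 encodes cytochrome c. Ndufa4 and Ndufa4l2 were counted with complex IV, where the NDUFA4 protein is now placed, although the name assigns it to complex I. Expression was sufficient for testing in 90 of the 95 members. The remaining 5, all tissue-restricted forms of complex IV subunits, were at or near 0 counts.

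Crypts from mouse intestine were grown as organoids in IntestiCult medium and received lentivirus that expressed either the miR-181a-5p mimic or the miRNA mimic control. Both groups were therefore transduced, and both were selected in puromycin at 2 μg/ml, so neither represents untreated organoids. There were 2 control libraries (replicates 1 and 2) and 2 mimic libraries (replicates 3 and 4), and it is not stated whether the libraries of a group were separate cultures or how many mice they came from. P-values therefore measure only the spread between these libraries, which may be technical. The strain, sex and age of the mice are not given in the sources used here.

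Oxidative phosphorylation takes place in the inner mitochondrial membrane. Complexes I and II pass electrons from NADH and succinate to ubiquinone, complex III passes them on to cytochrome c, complex IV hands them to oxygen, and complex V uses the resulting proton gradient to make ATP. Most subunits are encoded in the nucleus and imported, whereas a small core is encoded by mitochondrial DNA, so both genomes supply complexes I, III, IV and V, and complex II is wholly nuclear. In the small intestine, differentiated enterocytes are rich in mitochondria, and crypt base stem cells and their progeny are known to differ in how much they rely on respiration and glycolysis.

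The mature miR-181a-5p is shown because its seed, bases 2 to 8 and in capitals here, defines the sites sought in the members. RefSeq (GRCm38.p6) places the same mature sequence in Mir181a-1, at chr1:137966468-137966490 on the plus strand, and in Mir181a-2, at chr2:38852741-38852763 on the plus strand.
mmu-miR-181a-5p: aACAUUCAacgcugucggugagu

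A complete match to that seed (TGAATGT, a 7mer-m8 site) was present in the longest annotated 3′ UTR of 4 of the 89 tested members that had a UTR of at least 50 bases, or 4.49%. In 2 of these, Sdha and Cyc1, the site was the longer 8mer (TGAATGTA). Among all tested genes with such a UTR, 2468 of 12913 (19.1%) held a 7mer-m8 site and 6.26% an 8mer. The UTRs of the members were short, with a median of 298 bases against 1335 bases for all tested genes. The 4 sites are printed in the direction of the mRNA with the seed match in capitals (GRCm38). They are places where the mimic could pair directly with a member's transcript, if the transcript with that UTR is present. Which transcripts of these genes were expressed was not examined. Other kinds of match, other transcripts and regions outside the 3′ UTR were not searched. All 4 lie in a single 3′ UTR exon, at chr13:74322333-74322361 (minus strand) for Sdha, chr15:76346217-76346245 (plus strand) for Cyc1, chr9:44913315-44913343 (minus strand) for Atp5l and chr15:102664756-102664784 (minus strand) for Atp5g2.
Sdha: acttctcactgTGAATGTaactagtttct
Cyc1: aaggcactgcaTGAATGTaatacaaagct
Atp5l: gagttcttattTGAATGTtcttggaccat
Atp5g2: ccctgcttgttTGAATGTtggcattaagg

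Sdha, the flavoprotein of complex II, had 454 and 519.1 normalized CPM (counts scaled by library size and edgeR's TMM factors) in control replicates 1 and 2 and 482.4 and 459.7 in mimic replicates 3 and 4, so that its log2 fold change, given here with the standard error, was -0.05 ± 0.11 (adjusted p = 0.826, edgeR quasi-likelihood test). Both mimic values lay between the controls. Cyc1, the cytochrome c1 of complex III, had 145 and 196.3 normalized CPM in the controls, against 202.3 and 196.7 in the mimic libraries, a log2 fold change of 0.23 ± 0.14 (adjusted p = 0.364, edgeR). Its mimic libraries were both above the controls, but one of them barely exceeded control replicate 2. Atp5l, the g subunit of complex V, had a log2 fold change of 0.21 ± 0.13 (adjusted p = 0.354, edgeR), and Atp5g2, one of the genes for the c-ring, had one of -0.13 ± 0.12 (adjusted p = 0.546, edgeR). None of the 4 members with a seed match passed the test, and their median log2 fold change was 0.08 against 0.10 for the 85 without one. Over all tested genes with a UTR of at least 50 bases, the median was 0.023 for the 2468 with a site. It was 0.028 for the 10445 without. The level of the miRNA itself is not measured by these libraries.

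The libraries held 31104884 to 38111731 expected counts, of which the members took 1.17% to 1.38%. TMM factors were between 0.978 and 1.008, and the common biological coefficient of variation was 0.13. No library repeated another: between replicates, the chi-square of the counts per degree of freedom was 30.4 for the controls and 16.5 for the mimic, above the sampling noise of reads. The organoids carried epithelial markers, with summed levels of 8475 to 10760 normalized CPM for 15 enterocyte genes and 2256 to 3022 for 10 stem cell genes. Mesenchymal genes summed to 4.16 to 7.25 CPM, with 4 of 8 at 0 in all libraries (Col1a2, Col3a1, Dcn and Lum), and leukocyte genes to 4.88 to 6.6 CPM. In bulk RNA, fewer cells of one type and less RNA per cell cannot be told apart.

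No member passed an adjusted p of 0.05 in the edgeR quasi-likelihood test, 0 of 90 in either direction, where 2.29% of the 17155 genes tested were called lower with the mimic and 1.28% higher. With the additional requirement of a 2-fold change, 2.06% of all genes were called and again 0 members. At an unadjusted p under 0.05, 2 members were lower (Ndufa6 and Ndufa7) and 5 were higher (Ndufaf4, Ndufa1, Ndufa4, Cox6a1 and Cycs), against 13% and 11.8% of all genes in these directions. The lowest adjusted p among the members was 0.0773, for Ndufa6. With other tools, the edgeR exact test called Ndufa6 lower (adjusted p = 0.034; 5.99% of all genes) and Ndufaf4 higher (adjusted p = 0.0341; 4.44% of all genes). The DESeq2 Wald test called Ndufaf4 higher (adjusted p = 0.0364; 4.23% of the genes it gave an adjusted p), and limma on log2 TPM called 0. The smallest p that exact permutation of 2 control and 2 mimic libraries can give is 0.33.

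The median log2 fold change of the 90 tested members was 0.09, and that of all genes tested was -0.01. Of the members, 68 (75.6%) had a log2 fold change above 0, compared with 48.6% of all genes. Both mimic libraries were above both controls for 19 members (21.1%, against 28.9% of all genes) and below both for 9 (10%, against 29.5%), so that 62 of 90 members had overlapping groups. The positive median turned on one library: without control replicate 1 it was -0.04, with 36 of 90 members above 0 and 0 called, and without control replicate 2 it was 0.22, with 76 above 0 and 9 members called higher (Cox5a, Cyc1, Cycs, Ndufa1, Ndufa4, Ndufaf4, Ndufc1, Ndufs8 and Uqcrq). In that latter fit, 6.31% of all genes were called higher.

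**Figure D1:**
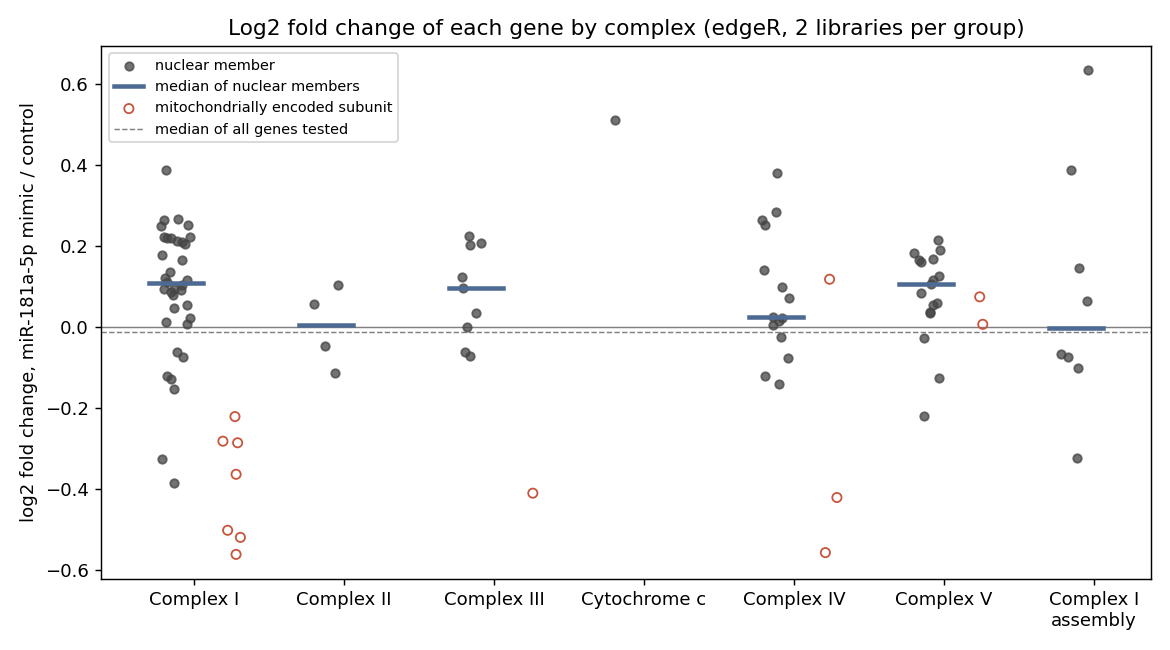
Log2 fold change (mimic over control, y axis) of each tested gene by complex (x axis), with filled points for nuclear members, blue bars for the median of each complex, open red points for mitochondrially encoded subunits and a dashed line for the median of all genes tested (-0.01). The nuclear members lie between -0.38 (Ndufa6) and 0.63 (Ndufaf4), and 10 of the 13 mitochondrially encoded subunits lie below 0.

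Control replicate 1 stood apart from the other libraries for these genes. This was not particular to the members, since genes of the TCA cycle and the mitochondrial ribosome, given below, showed a like shift. It was the lowest of the 4 libraries for 71 of 90 members (78.9%), against 30.4% of all genes. It was the highest for 4 members (4.44%), against 32.8% of all genes. Control replicate 2 exceeded control replicate 1 in 84 of 90 members (93.3%), against 49% of all genes. The median log2 difference was 0.22 for the members and -0.01 for all genes. For 71 of the 90 members (78.9%, against 42.2% of all genes) the gap between the controls was larger than the fold change between the groups. The mimic libraries were closer together, replicate 4 being lower than replicate 3 by a median of 0.07 on the log2 scale. Both mimic libraries lay above control replicate 1 in 72 members (80%, against 39.5% of all genes). They lay above control replicate 2 in 19 members (21.1%, against 39.6% of all genes).

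The shift of control replicate 1 was seen in every complex. Each gene was centred on its own mean over the 4 libraries, and the median was then taken within each complex. For complex I this median was -0.19 and 0.08 in control replicates 1 and 2, and 0.10 and 0.02 in mimic replicates 3 and 4. For complex III it was -0.20 and 0.10 in the controls, against 0.04 and 0.02 in the mimic libraries. Complex V showed a like order, with -0.15 and 0.05 in the controls, against 0.10 and 0.01 in the mimic libraries. The assembly factors had the smallest spread, from -0.03 to 0.03. The members vary together across libraries, so they are not independent observations of a difference between the groups.

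**Figure D2:**
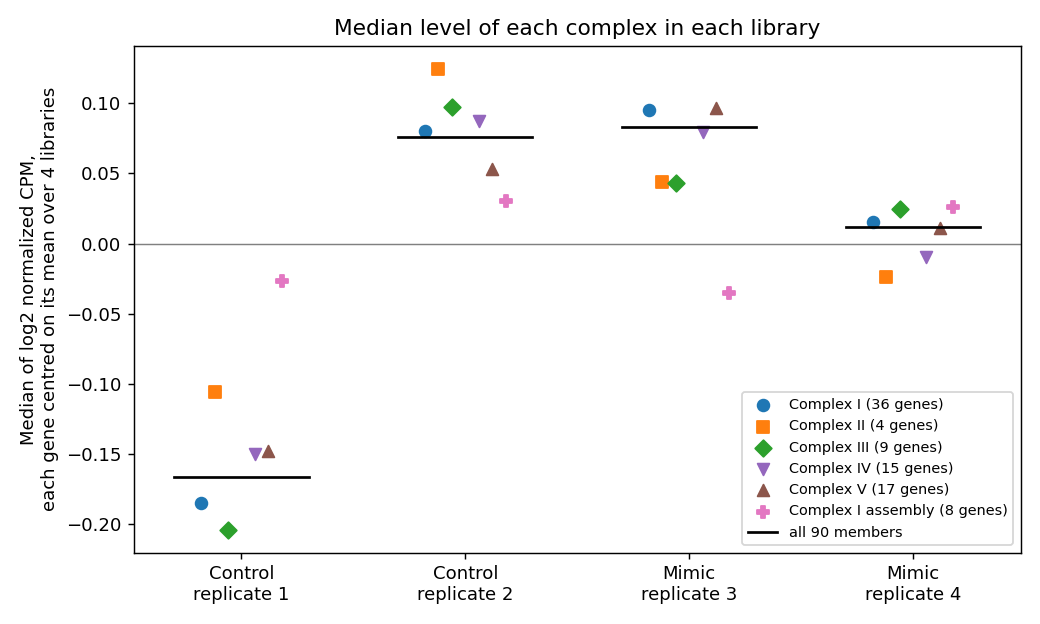
Median level of each complex in each library (y axis, log2 normalized CPM with each gene centred on its mean over the 4 libraries), with 1 symbol per complex and a black line for all 90 members. Control replicate 1 is at -0.17 for all members, and control replicate 2 (0.08), mimic replicate 3 (0.08) and mimic replicate 4 (0.01) are close to one another.

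The summed levels of cell type markers also differed between the controls. That of stem cell genes was 3022 normalized CPM there against 2256 in control replicate 2, and 2701 and 2981 with the mimic. Control replicate 1 and mimic replicate 4 were thus close in this sum, but not in each gene. Lgr5 was at 401.5 and 176.1 in these libraries, and Slc12a2, the most abundant of the list, at 1146 and 1305. Lgr5 was called lower with the mimic (-1.38 ± 0.26, adjusted p = 0.0369, edgeR), while 7 of the 10 stem cell genes had a log2 fold change above 0. The sum of 9 Paneth cell genes was 1059 against 723.3, and 667.5 and 871.7 with the mimic. Enterocyte genes summed to 9555 and 10760 in the controls, and to 9810 and 8475 with the mimic, where mimic replicate 4 was the lowest library. Control replicate 1 was also the most deeply sequenced library. The part of cell composition or depth in the members' levels was not tested.

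Complex I, the NADH dehydrogenase, had 36 tested members with a median log2 fold change of 0.11, 29 of them above 0, and none passed the test. Ndufa6, an accessory subunit at chr15:82350140-82354322, was the most abundant by TPM, a length-normalized scale, with 343.9 and 382.7 TPM in the controls, against 269.2 and 321.5 in the mimic libraries. Its normalized CPM was 140.2 and 151.5 in the controls, against 106.7 and 116.8 in the mimic libraries. The mimic libraries were both below the controls, with a log2 fold change of -0.38 ± 0.10 (95% interval -0.62 to -0.15; adjusted p = 0.0773, edgeR).

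Ndufa7, another accessory subunit, followed the same order, with 54.67 and 57.47 normalized CPM in the controls, against 40.97 and 48.51 in the mimic libraries (log2 fold change -0.33 ± 0.12, adjusted p = 0.145, edgeR). These were the members with the largest negative differences, and for both of them control replicate 1 was not the lowest library. Ndufa1, a small membrane-arm subunit encoded on chromosome X, had 19.22 and 22.46 normalized CPM in the controls, against 27.84 and 26.63 in the mimic libraries, a log2 fold change of 0.39 ± 0.13 (adjusted p = 0.123, edgeR). In this gene both mimic libraries were above both controls.

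In the catalytic core of complex I, the differences were near the size of their standard errors. Ndufs1, which carries iron-sulfur clusters of the electron entry arm, had 142.2 and 175.9 normalized CPM in the controls, against 177.5 and 167.4 in the mimic libraries (log2 fold change 0.12 ± 0.12). Ndufv1, which binds FMN and NADH, had 97.36 and 123.4 in the controls, against 124.1 and 113.3 in the mimic libraries (0.11 ± 0.13). The adjusted p-values were 0.585 and 0.653 (edgeR), and for both genes the groups overlapped. Ndufa10, the second most abundant member of the complex at 260.5 TPM over all libraries, had a log2 fold change of -0.07 ± 0.11.

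The 8 assembly factors of complex I, which help build the enzyme and are not part of it, were expressed at 10.85 to 27.33 TPM, below every nuclear subunit of complex I (66.37 to 329.3 TPM). Their median log2 fold change was -0.0015, with 4 above and 4 below 0. Ndufaf4, at chr4:24898083-24905001, showed the largest fold change of all members. Its normalized CPM was 24.62 and 37.75 in the controls, against 52.3 and 44.41 in the mimic libraries. Both mimic libraries were above both controls, with a log2 fold change of 0.63 ± 0.20 (95% interval 0.18 to 1.09; adjusted p = 0.112, edgeR). It was 0.35 (adjusted p = 0.24) without control replicate 1 and 0.98 (adjusted p = 0.0036) without control replicate 2. Ndufaf2 had 5.764 and 6.583 normalized CPM in the controls, against 8.845 and 7.304 in the mimic libraries (0.39 ± 0.19, adjusted p = 0.244, edgeR). Ndufaf8, the most abundant factor, had a log2 fold change of -0.07 ± 0.15.

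Complex II, the succinate dehydrogenase that also works in the TCA cycle, had the smallest median log2 fold change of the subunit groups, 0.0057, with 2 members above and 2 below 0. Sdhb, its iron-sulfur subunit, had 108.2 and 147 normalized CPM in the controls, against 138.5 and 135.6 in the mimic libraries (0.10 ± 0.14). Sdhc, a membrane anchor and the most abundant of the 4 at 255.4 TPM, had 183.5 and 203.4 in the controls, against 175.3 and 182.3 in the mimic libraries (-0.11 ± 0.10). In Sdhc the mimic libraries were narrowly below both controls. Sdhd, the other anchor, was at 227.5 TPM with a log2 fold change of 0.06 ± 0.11. The adjusted p-values of the 4 were 0.507 or more (edgeR).

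The 9 members of complex III, which oxidizes ubiquinol, had a median log2 fold change of 0.10, with 7 above 0. Uqcrh, the hinge subunit, was the most abundant at 543.3 TPM and had a log2 fold change of -0.07 ± 0.10. Uqcrq was at 386.2 TPM, with 88.13 and 118.7 normalized CPM in the controls, against 123.8 and 114.3 in the mimic libraries (0.20 ± 0.14). Uqcr10, a small subunit, had 71.75 and 85.96 in the controls, against 96.14 and 85.93 in the mimic libraries (0.21 ± 0.12, adjusted p = 0.322, edgeR). For both the groups overlapped. Uqcrc1, a core subunit, and Uqcrfs1, the Rieske iron-sulfur protein, had log2 fold changes of 0.04 ± 0.10 and 0.10 ± 0.12.

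Cycs, the somatic cytochrome c that shuttles electrons between complexes III and IV, lies at chr6:50562563-50566538 and had 28.92 and 48.34 normalized CPM in the controls, against 55.5 and 54.52 in the mimic libraries. Control replicate 1 was far below the other libraries, which were close to one another. The log2 fold change was 0.51 ± 0.21 (95% interval 0.02 to 1.01; adjusted p = 0.191, edgeR), and it was 0.18 without control replicate 1 and 0.93 (adjusted p = 0.0022) without control replicate 2. The mouse genome holds processed copies of Cycs, and its expected counts were not whole numbers, so reads shared with such copies make its level uncertain. Non-whole counts, the sign that RSEM divided reads among genes, occurred in 44 of the 95 members.

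Complex IV, the cytochrome c oxidase, had 15 tested members with a median log2 fold change of 0.03, 11 of them above 0. Cox4i1 and Cox6b1 were the most abundant, at 696.6 and 595.6 TPM, with log2 fold changes of 0.02 ± 0.11 and 0.02 ± 0.11. Ndufa4 had 92.48 and 111.5 normalized CPM in the controls, against 148.8 and 116.7 in the mimic libraries. Both mimic libraries were above the controls but differed from each other more than the controls did; the log2 fold change was 0.38 ± 0.14 (adjusted p = 0.164, edgeR).

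Cox5a, a subunit on the matrix side of the enzyme, had 103.3 and 138.9 normalized CPM in the controls, against 157.3 and 137.4 in the mimic libraries (0.28 ± 0.15, adjusted p = 0.283, edgeR). Its groups overlapped, since mimic replicate 4 was below control replicate 2. Cox6a1, the broadly expressed form of subunit 6a, had 140.9 and 161.7 in the controls, against 186.5 and 177.1 in the mimic libraries (0.26 ± 0.10, adjusted p = 0.174, edgeR), with groups that did not overlap. Cox5b, which binds zinc, had a log2 fold change of 0.14 ± 0.11, and Cox7a2l, linked to the assembly of supercomplexes, had 242.3 and 242.6 in the controls, against 219.2 and 220.5 in the mimic libraries (-0.14 ± 0.09, adjusted p = 0.365, edgeR). The replicates of Cox7a2l lay close together in both groups, and its mimic libraries were both below the controls.

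**Figure D3:**
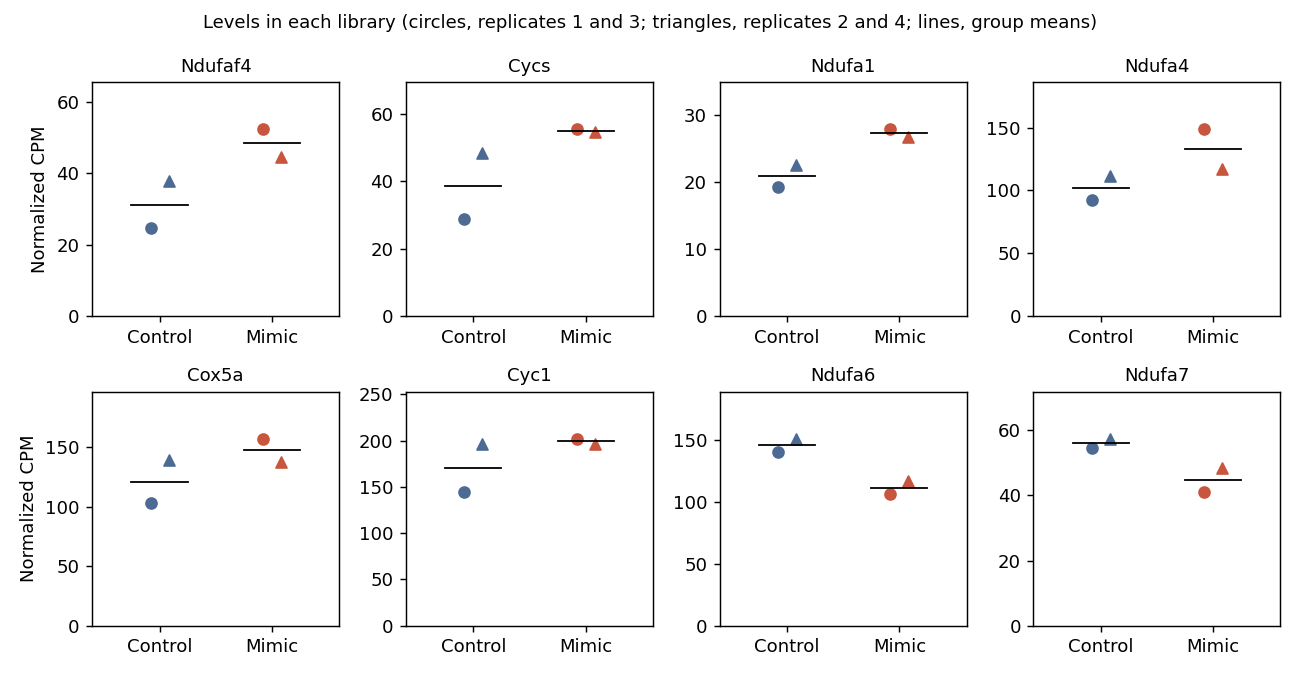
Normalized CPM (y axis, from 0) in each of the 4 libraries for 8 members described in the text, with circles for replicates 1 and 3, triangles for replicates 2 and 4 and lines for the group means. Ndufa6 and Ndufa7 are lower in both mimic libraries, Ndufaf4, Ndufa1 and Ndufa4 are higher in both, and for Cycs and Cyc1 control replicate 1 (28.92 and 145) is apart from the other 3 libraries.

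Complex V, the ATP synthase, had 17 tested members with a median log2 fold change of 0.11, 14 of them above 0. Atp5b, the catalytic beta subunit, was the most abundant member of all, with 1335 and 1577 TPM in the controls, against 1612 and 1703 in the mimic libraries. Its normalized CPM was 1433 and 1671 in the controls, against 1732 and 1654 in the mimic libraries, a log2 fold change of 0.13 ± 0.13 (adjusted p = 0.59, edgeR). Atp5a1, the alpha subunit, was at 671.7 TPM over all libraries and had a log2 fold change of 0.08 ± 0.13. In both genes the groups overlapped on the CPM scale. Atp5s, a peripheral factor of the enzyme and the least abundant member of the group at 12.09 TPM, had 11.66 and 11.29 normalized CPM in the controls, against 9.164 and 10.53 in the mimic libraries (-0.22 ± 0.15, adjusted p = 0.407, edgeR). The symbol Atp5o belonged to a pair of overlapping gene identifiers. The main one had 6459 to 7394 expected counts, whereas the longer one, at chr16:91684398-91926982, had 11.21 to 66.15, and only the former was used.

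Where a subunit has several genes, the broadly expressed form prevailed in the organoids. The c-ring of complex V is encoded by Atp5g1, Atp5g2 and Atp5g3, which make the same mature protein, and these were at 260.6, 46.9 and 654.4 TPM. Atp5g3 had a log2 fold change of 0.17 ± 0.13 and Atp5g1 one of 0.19 ± 0.12. In complex IV, the heart and muscle form Cox7a1 was at 27.78 TPM against 289.9 for Cox7a2, and the testis form Cox6b2 was at 1.988 TPM against 595.6 for Cox6b1. Cox8a was at 518 TPM, while the muscle form Cox8b had 0 to 4 counts and Cox8c had 0 in every library. Cox6a2, the muscle form of subunit 6a, had 5 and 8 counts in the controls, against 0 and 1 in the mimic libraries, too few to test. Cox4i2 and Cox7b2 also had 0 counts in every library, and Ndufa4l2 was at 0.518 TPM against 380.1 for Ndufa4. A count of 0 allows for up to 3 counts in a library. Ndufb4, which has near-identical copies in the genome that could share its reads, was at 74.69 TPM with a log2 fold change of 0.22 ± 0.18.

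Summed over all their members, the complexes kept nearly the same proportions in every library. Complex I took 24.75% and 25.06% of the members' TPM in the controls, against 24.2% and 24.68% in the mimic libraries. Complex IV took 25.42% and 25.06% in the controls, against 25.68% and 25.22% in the mimic libraries, and complex V took 31.89% and 31.75%, then 32.5% and 32.35%. Complex III held 12.88% to 13.13% of the members' TPM in the 4 libraries, and complex II held 3.907% to 4.197%. For complexes I, II and V the control and mimic shares did not overlap, the shares of complexes I and II being lower and that of complex V higher with the mimic, by less than 1 percentage point. These shares are a description of 2 libraries per group and carry no test.

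In absolute TPM, the sum of complex I was 5021 ± 676 in the controls, against 5444 ± 234.8 in the mimic libraries (mean ± SD, n = 2 each), a ratio of 1.084. That of complex II was 842.5 ± 102.1 and 874.5 ± 31.47 (ratio 1.038), and that of complex III was 2625 ± 362.1 and 2873 ± 91.42 (ratio 1.095). These differences were smaller than the control SD. Complex IV summed to 5082 ± 587.9 and 5667 ± 92.09 (ratio 1.115), and complex V to 6409 ± 787.5 and 7220 ± 185.5 (ratio 1.127). The difference for complex IV was about equal to the control SD, and that for complex V was slightly larger. For every complex, the ratio of control replicate 2 to control replicate 1 (1.178 to 1.216) was larger than the ratio of mimic to control. On the scale of summed normalized CPM the ratios of mimic to control were 1.043 for complex I, 0.988 for complex II, 1.047 for complex III, 1.05 for complex IV and 1.076 for complex V, so that the direction for complex II depended on the scale.

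**Figure D4:**
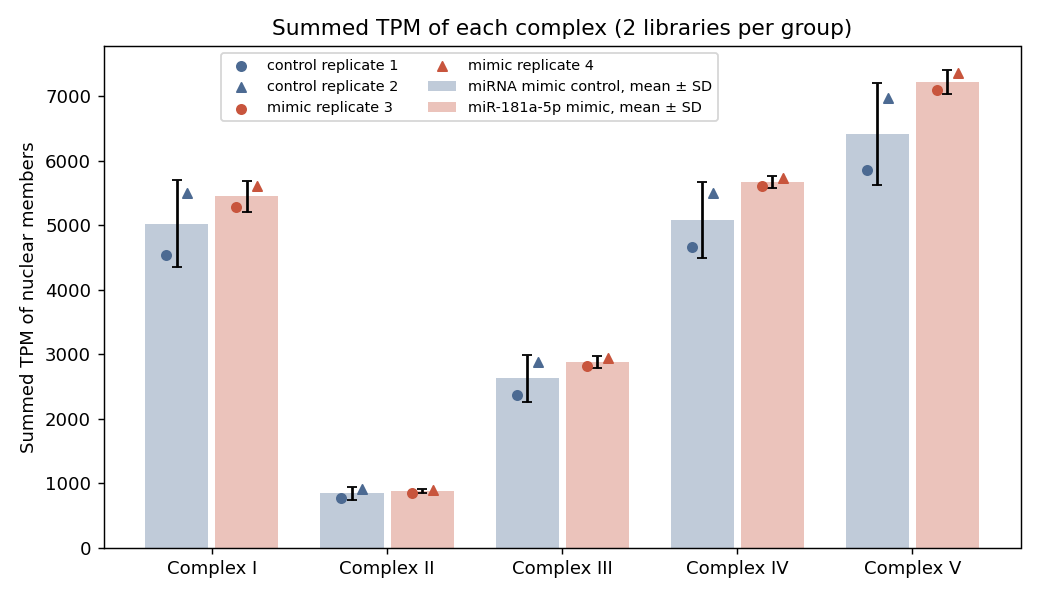
Summed TPM of the nuclear members of each complex (y axis, from 0) in the miRNA mimic control (blue) and miR-181a-5p mimic (red) libraries, with bars for the mean of 2 libraries, error bars for the SD and points for each library. Control replicate 1 is the lowest library in all 5 complexes, from 770.3 TPM in complex II to 5853 TPM in complex V.

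Standard errors of the members' log2 fold changes ran from 0.09 to 0.51, with a median of 0.12. The largest belonged to members with few counts, Ndufa4l2 (7 to 15 counts per library) and Cox6b2 (15 to 26). The 95% interval of the fold change lay within 2-fold in either direction for 86 of 90 members (66.6% of all genes), and within 1.5-fold for 76 (41.3% of all genes). All members of complexes II, III and V were within 1.5-fold by this measure. The 4 members whose interval reached beyond 2-fold were Ndufaf4, Cycs, Cox6b2 and Ndufa4l2.

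The subunits encoded by mitochondrial DNA were measured in the same libraries. Of 13, 10 had a log2 fold change below 0 and 3 had one above 0, where 48.6% of all genes were above 0. The median was -0.36. In the edgeR test 1, mt-Nd4l, was called lower (2.29% of all genes) and none higher (1.28% of all genes). An unadjusted p under 0.05 was reached by 6 of the 13 (24.8% of all genes). The complex I gene mt-Nd4l had 390.8 and 431.2 normalized CPM in the controls, against 298.5 and 275.2 in the mimic libraries, a log2 fold change of -0.52 ± 0.10 (adjusted p = 0.0455, edgeR). That call was lost with log2 TPM, with no filter on low counts, with a correction for length and GC content and without either mimic library, where adjusted p-values were 0.0738 to 0.177. Also in complex I, mt-Nd5 (3796, 4190, 2712 and 2702 normalized CPM in replicates 1 to 4) and mt-Nd6 (439.8, 455.3, 340.6 and 291.8) were lower in both mimic libraries, with adjusted p-values of 0.0759 and 0.0545 (edgeR). Reads of mitochondrial genes can be divided with near-identical nuclear copies, which makes such levels uncertain. Expected counts were not whole numbers for mt-Nd4l and mt-Nd5, but were whole in every library for mt-Nd6. The gene mt-Co2, also with non-whole counts, was listed at 18.94 to 45.9 normalized CPM. The sources name both poly(A) selection and depletion of ribosomal RNA as the library method, and the part of the method in the levels of mitochondrial transcripts was not tested.

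Among 15 regulators of mitochondrial biogenesis, 1 fell (2.29% of all genes) and none rose (1.28% of all genes) past the test. The log2 fold change was above 0 for 12 of the 15 (48.6% of all genes), with a median of 0.13. An unadjusted p under 0.05 was reached by 5 of the 15 (24.8% of all genes). Ppargc1a, the coactivator PGC-1α, had 29.6 and 33.46 normalized CPM in the controls, against 19.35 and 18.01 in the mimic libraries, a log2 fold change of -0.76 ± 0.12 (adjusted p = 0.0259, edgeR). Both mimic libraries were well below both controls, and the adjusted p was 0.0106 to 0.0495 when any single library was left out, but 0.0688 with no filter on low counts and 0.0830 and 0.0834 with log2 TPM. Esrra, which encodes the receptor ERRα, had 80.38 and 94.16 in the controls, against 115.2 and 110.4 in the mimic libraries (0.37 ± 0.11, adjusted p = 0.0988, edgeR). Pprc1 (0.35 ± 0.11), Tfb2m (0.36 ± 0.11) and Yy1 (0.29 ± 0.09) were also higher without passing the test. Nrf1 (0.21 ± 0.13) and Gabpa (0.18 ± 0.11), activators of many respiratory genes, did not pass the test. Neither did Tfam (0.07 ± 0.09), which coats mitochondrial DNA and acts in starting its transcription.

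The remaining lists of the pathway contained few calls. Of 40 tested assembly factors with other names, edgeR called 0, 7 reached an unadjusted p under 0.05 (24.8% of all genes did so in either direction), and the median log2 fold change was 0.08. Of 78 proteins of the mitochondrial ribosome, edgeR called 0 and 13 reached an unadjusted p under 0.05 (median 0.14). Control replicate 1 was the lowest library for 61 of the 78, as it was for 30.4% of all genes. Enzymes of the TCA cycle (0 of 14 called, 2 at an unadjusted p under 0.05) had a median of 0.0053, and coenzyme Q synthesis (0 of 13, 3 at an unadjusted p under 0.05) one of -0.04. Control replicate 1 was the lowest library for 10 of the 14 and 6 of the 13. Control replicate 2 exceeded it by a median log2 difference of 0.24 and 0.16 in these lists. Among 10 tested carriers of nucleotides, phosphate and protons, 4 reached an unadjusted p under 0.05 (24.8% of all genes). None was called lower (2.29% of all genes) and 1 was called higher (1.28% of all genes). This was Slc25a25, a calcium-regulated carrier of ATP-Mg and phosphate, with 16.82 and 18.36 normalized CPM in the controls, against 29.22 and 28.91 in the mimic libraries (0.72 ± 0.12, adjusted p = 0.0256, edgeR), a call that was lost with no filter on low counts, with log2 TPM and without mimic replicate 3 (adjusted p-values of 0.0616 to 0.155). Atpif1, the inhibitor of the ATP synthase, has a symbol outside the member rule and had a log2 fold change of -0.05 ± 0.10.

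Promoters were examined because the members varied together across the libraries. RefSeq promoters (GRCm38.p6, 250 bases before to 50 after the transcription start) were matched for 75 of the 90 tested members (83.3%). The letters GCGCATGC or their reverse complement GCATGCGC, the core of the site of NRF1, occurred in 13 of 75 members (17.3%) and in 621 of 11011 tested genes with a promoter (5.64%), or in 2.71% of the 32851 promoters in the table. AAGATGGC, a YY1 motif, occurred on either strand in 11 members (14.7%, against 5.1% of tested genes and 2.75% of all promoters), 7 of them in complex I. CCGGAAG, an ETS motif, occurred in 18 (24%, against 19.4% and 8.86%) and CCAAT in 34 (45.3%, against 43% and 37.4%). Motifs were searched independently on both strands, so matches may overlap. The 13 members with the NRF1 letters had a median log2 fold change of 0.18 and the 62 without had one of 0.09. For YY1 the medians with and without the motif were 0.05 and 0.10, for ETS 0.09 and 0.09, and for CCAAT 0.08 and 0.09. These differences were not tested.

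The promoters of the members with the largest positive differences, Ndufaf4 and Cycs, and of the one with the largest negative difference, Ndufa6, are printed with the NRF1 letters in capitals. Each shows 250 bases upstream and the first 50 transcribed bases. They lie at chr4:24897833-24898132 (plus strand), chr6:50566520-50566819 (minus strand) and chr15:82354242-82354541 (minus strand). All 3 held the letters. In Ndufaf4 they occurred 3 times, starting at bases 138, 140 and 252 of the window, the first pair overlapping. A match is a description of the letters and not evidence of binding.
Ndufaf4: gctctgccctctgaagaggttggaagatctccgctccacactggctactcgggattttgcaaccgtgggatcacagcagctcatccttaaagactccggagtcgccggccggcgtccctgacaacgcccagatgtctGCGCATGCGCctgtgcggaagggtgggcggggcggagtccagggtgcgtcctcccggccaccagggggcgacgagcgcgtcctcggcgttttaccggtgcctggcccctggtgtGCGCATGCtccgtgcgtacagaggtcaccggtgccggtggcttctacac
Cycs: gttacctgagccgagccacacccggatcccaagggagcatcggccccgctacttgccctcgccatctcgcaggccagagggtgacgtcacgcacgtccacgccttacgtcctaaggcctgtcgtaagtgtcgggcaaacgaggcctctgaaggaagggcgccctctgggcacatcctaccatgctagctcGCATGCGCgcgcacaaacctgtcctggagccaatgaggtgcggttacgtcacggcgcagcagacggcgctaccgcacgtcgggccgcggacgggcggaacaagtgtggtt
Ndufa6: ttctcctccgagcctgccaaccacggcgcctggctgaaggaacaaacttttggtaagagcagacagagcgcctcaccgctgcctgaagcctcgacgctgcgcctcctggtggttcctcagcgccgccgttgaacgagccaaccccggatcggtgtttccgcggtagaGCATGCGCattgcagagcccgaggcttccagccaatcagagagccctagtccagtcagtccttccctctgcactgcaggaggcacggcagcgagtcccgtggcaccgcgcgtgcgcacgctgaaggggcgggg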

How the data were processed

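Organoid RNA-seq was analysed in 2 mimic control and 2 miR-181a-5p mimic libraries. Per the labels and the study's methods, the authors trimmed reads with Trimmomatic, quantified them with RSEM on GRCm38 and deposited RSEM's expected counts and TPM per gene; TPM are scaled to one total per library. The labels name poly(A) enrichment and the methods removal of ribosomal RNA. In each table, a further 3 columns matched no sample and were left out.

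Expected counts were rounded and fitted over the 17155 genes that filterByExpr kept (R 4.3.3, edgeR 4.0.16, TMM scaling, the quasi-likelihood test with legacy = FALSE, Benjamini-Hochberg adjustment, threshold 0.05). Standard errors are the log2 fold change over the root of F. Symbols, biotypes, 3′ UTRs and gene coordinates came from GENCODE M21 (GRCm38), and where a symbol had several identifiers, that with the most counts was taken. Alternatives were edgeR's exact test, DESeq2 1.42.0, limma 3.58.1 on log2 TPM (pseudocounts of 1 and 0.1, genes reaching 1 TPM in 2 libraries), other scalings and filters, a length and GC correction and each library left out. The scripts were tested on simulated counts. The legacy form of the quasi-likelihood test was added after seeing the data.

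The members and lists were chosen with earlier results of these data known. Genes are named where they passed the test, were among the 2 most abundant or 2 most changed of their complex (at least 100 counts in every library), belong to the catalytic core, have paralogs or carry a seed site. Not every gene that meets this rule is reported here. Ndufa7, Ndufc1, Ndufs8, genes of the other lists and those named at an unadjusted p were named after their values were seen. The depth was 31104884 to 38111731 counts per library, and members with few counts had the widest intervals.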

Additional observations from a re-analysis of the deposited data

How the results depend on the processing

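In 12 of 15 alternatives 0 members were called, as in the fit reported. The edgeR exact test called 1 lower and 1 higher, DESeq2 1 higher, and leaving out single libraries gave 0 to 9 higher and 0 lower. The median log2 fold change of the members ran from -0.037 to 0.22 when libraries were left out, and by complex from -0.030 to 0.25 (I), -0.13 to 0.12 (II), -0.059 to 0.26 (III), -0.054 to 0.18 (IV), 0.0042 to 0.20 (V) and -0.02 to 0.03 (assembly factors). The lowest value of the members came without control replicate 1 and the highest without control replicate 2. With log2(TPM + 1) and log2(TPM + 0.1) the median of the assembly factors was 0.063 and 0.0675, and that of all members 0.16 and 0.16, where the median of all genes was 0.06 and 0.07. The cause was not tested. All other medians by complex moved by less than the replicate spread outside the fits without a library.

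Over 41 named members and 15 alternatives, 602 of 612 values kept their side of the threshold, 10 passed it and 31 that were not called changed sign. Across all genes the calls numbered 612, and 1788 with the exact test, 1293 with DESeq2, 192 without a filter, 75 with log2(TPM + 1), 27 with log2(TPM + 0.1) and 373 to 2365 without single libraries. No paired analysis was possible because the groups share no replicate number. A fit without 1 library assumes that the lone library of its group varies like the others.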
